A study of Mus musculus with 9 samples.

Results

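Complement is a set of plasma and membrane proteins that tags microbes and dying cells for removal. It starts by the classical, lectin or alternative route, and all routes meet at the cleavage of C3. In the classical route the C1q protein carries the proteases C1r and C1s, which cleave C4 and C2, while factor B serves the alternative route. The C1 inhibitor encoded by Serping1 inactivates C1r and C1s, CD55 speeds the decay of the enzymes that cleave C3, and CD59 blocks the pore formed at the end of the cascade. Stromal cells such as fibroblasts are a known source of several of these proteins outside the liver.

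The 9 genes described here are Serping1, C3, C4b, C1ra, C1s1, C2, Cfb, Cd55 and Cd59a, out of 15964 genes with a probe set of their own in the series. They were chosen by name around Serping1, which was picked from its large difference between the lines in these same data, so its difference is a description and supports nothing further. A probe set was used where the platform annotation gave it exactly 1 gene symbol. Of the 9 genes, 8 had such a probe set. None carried the symbol C3 alone, and C3 was not analysed here.

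The study set 3 mouse stromal cell lines side by side to compare cells that do and do not support blood formation. AGM-s3-A9 (supportive) and AGM-s3-A7 (not supportive) come from the aorta-gonad-mesonephros (AGM) region, where blood stem cells first form in the embryo, and OP9 (supportive) comes from the skull cap of newborn mice. The labels give no treatment, genotype or further age for any line. Each line was hybridised once, from total RNA, to the 3 Affymetrix array types of the MG-U74 set (A, B and C), so every comparison rests on 1 array per line, has no replicate error and no p-value, and cannot tell a difference in origin, supportive capacity or single cell line apart.

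Values are intensities, quantile-normalized within an array type and compared only within a probe set. The detection level is the higher of the array type's median and the 95th percentile of 34 control probe sets that should find no target, and it was 61.6 on MG-U74C, 52.8 on MG-U74B and 49.0 on MG-U74A. Where 1 line of a pair did not exceed it the fold is a bound, written "at least", and where neither did none is stated. In place of replicate error, genes with 2 probe sets on an array type gave, from the disagreement of the pair, a robust SD of the log2 ratio of 0.30 between the AGM lines, and of 0.31 and 0.32 when OP9 was set against AGM-s3-A7 and AGM-s3-A9. For 20 control probe sets present on all 3 array types, the SD of the log2 ratio between array types was 0.24, 0.18 and 0.21 in the same order. Neither figure covers separate cultures.

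Of the measured members, 3 had an upstream sequence in the RefSeq promoter table (GRCm38.p6). They are shown because these genes, C1ra, C1s1 and Cd59a, carry the results beside Serping1. Each run is the 250 bases before the annotated start, 5' to 3' on the gene's own strand, with motif matches in capitals. C1ra lies on the plus strand at chr6:124512371-124512620, C1s1 on the minus strand at chr6:124542360-124542609 and Cd59a on the plus strand at chr2:104095551-104095800. The table holds 2 starts for C1s1, and the more upstream one is used. C1ra and C1s1 are neighbours on chromosome 6, with 0 protein-coding genes between them.
C1ra: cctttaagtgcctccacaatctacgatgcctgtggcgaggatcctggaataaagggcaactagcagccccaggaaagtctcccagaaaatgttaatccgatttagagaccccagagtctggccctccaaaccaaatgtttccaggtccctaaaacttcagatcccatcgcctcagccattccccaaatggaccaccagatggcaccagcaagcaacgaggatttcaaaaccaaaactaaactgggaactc
C1s1: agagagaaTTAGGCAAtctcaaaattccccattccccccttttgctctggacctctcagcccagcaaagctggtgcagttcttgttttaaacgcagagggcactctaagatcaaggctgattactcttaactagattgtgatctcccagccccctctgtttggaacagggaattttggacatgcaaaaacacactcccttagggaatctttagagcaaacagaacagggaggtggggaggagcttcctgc
Cd59a: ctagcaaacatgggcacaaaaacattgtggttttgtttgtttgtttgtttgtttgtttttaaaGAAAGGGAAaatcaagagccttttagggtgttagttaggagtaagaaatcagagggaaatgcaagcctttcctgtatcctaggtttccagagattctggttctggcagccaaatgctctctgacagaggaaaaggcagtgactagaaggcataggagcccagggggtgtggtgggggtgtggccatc

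The search covered 4 motifs on both strands of these runs. TTCNNNGAA is the interferon-gamma-activated site bound by STAT factors, GAAANNGAA the core of the interferon-stimulated response element, TTGCNNAA a C/EBP site and TATAAA the TATA box. C1s1 held 1 match, to the C/EBP motif, at bases -242 to -235 on the opposite strand. The window of its other start, 38 bases downstream, held 0 matches to any of the 4. Cd59a held 1 match, to the interferon-stimulated core, at bases -187 to -179. The C1ra run held 0 of the 4 motifs, and no match overlapped another. Over all 32851 promoter entries, windows of the same length held these motifs in 7.02%, 7.13%, 9.56% and 12.4%, in the order given. A match describes letters in a window and does not show a bound site.

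Serping1 separated OP9 from both AGM lines. Its 1 probe set, on MG-U74A, read 54.3 in OP9, 1665 in AGM-s3-A7 and 2296 in AGM-s3-A9. Both AGM lines were high and OP9 lay just above the detection level, at 111% of it, so the folds below become bounds where that level is raised or the intensities are taken as deposited. The intensity in OP9 was 30.7-fold lower than in AGM-s3-A7 (log2 ratio -4.94) and 42.3-fold lower than in AGM-s3-A9 (log2 ratio -5.40). Among genes above the detection level in both lines of a pair, 0 of 7329 had a lower ratio in the first comparison and 0 of 7366 in the second. That place restates why Serping1 was chosen, and it leaves out genes below the detection level in OP9. Between the AGM lines Serping1 was 1.38-fold higher in AGM-s3-A9, a log2 difference of 0.46. With the intensities as deposited, 2961 and 1477, that difference passed 2-fold. In RNA from whole cultures, fewer cells with a transcript and less transcript per cell cannot be told apart.

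Probe sets for both C1 proteases, the targets of the C1 inhibitor, gave signal above the detection level in all lines. Those for C1ra may cross-hybridise. C1s1, encoding the protease that cleaves C4 and C2, read 741 in OP9, 1732 in AGM-s3-A7 and 1161 in AGM-s3-A9 on its 1 probe set, on MG-U74B. All 3 readings were far above the detection level, with AGM-s3-A7 the highest and OP9 the lowest. OP9 was 2.34-fold lower than AGM-s3-A7 (log2 ratio -1.23) and 1.57-fold lower than AGM-s3-A9, while AGM-s3-A9 was 1.49-fold lower than AGM-s3-A7. Of the 8 alternatives tried, only the 3 scalings could change these ratios, as the 1 probe set lay far above each detection level. The direction held under all 3, although OP9 against AGM-s3-A9 shrank to a log2 ratio of -0.13 with the intensities as deposited.

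C1ra, encoding the protease that activates C1s, showed no difference of 2-fold between any lines. Its brighter probe set on MG-U74A read 707 in OP9, 950.2 in AGM-s3-A7 and 694 in AGM-s3-A9. Its dimmer probe set on the same array type read 410.2, 292 and 303 in the same order. The brighter one put OP9 at a log2 ratio of -0.43 to AGM-s3-A7 and the dimmer one at 0.49, so the order of the lines is not settled. Both carry a suffix that marks possible cross-hybridisation, and C1ra has a close copy, C1rb. A further probe set annotated to both copies read between 9.59 and 17.8, below the detection level in every line.

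Cd59a, the membrane inhibitor of the terminal pore, followed the same order of lines as Serping1 with a smaller difference. It read 78.4 in OP9, 268 in AGM-s3-A7 and 371 in AGM-s3-A9 on its 1 probe set, on MG-U74A. OP9 was 3.41-fold lower than AGM-s3-A7 (log2 ratio -1.77) and 4.73-fold lower than AGM-s3-A9 (log2 ratio -2.24). Of the 7329 genes measured in both lines, 76 had a lower ratio than Cd59a between OP9 and AGM-s3-A7. The AGM lines differed by 1.39-fold, a log2 difference of 0.47 that became 1.20 with the intensities as deposited.

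On probe sets of their own, the other measured members did not exceed the detection level in any line, and no fold is given for them. C2, the protease component of the classical C3-cleaving enzyme, came closest, at 29.4 in OP9, 43.2 in AGM-s3-A7 and 27.8 in AGM-s3-A9 on the brightest of 3 probe sets. Cfb, encoding factor B, read 12.7, 28.2 and 17.6 in the same order on the brighter of 2. Its other probe set put the lines in another order, at 24.7, 19.0 and 4.37. The 3 probe sets of Cd55, the decay-accelerating factor, reached at most 8.24. The 1 probe set annotated to C4b alone, on MG-U74C, read at most 4.08. These readings show that the probe sets gave no signal above background, which need not mean that the genes were silent. For C4b, a probe set annotated to both C4a and C4b, outside the member rule, was above the detection level in every line. It read 157 in OP9, 116 in AGM-s3-A7 and 325 in AGM-s3-A9 and cannot be assigned to either gene. The plot of member intensities shows the 4 genes above the detection level and the 4 below it.

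**Figure D1:**
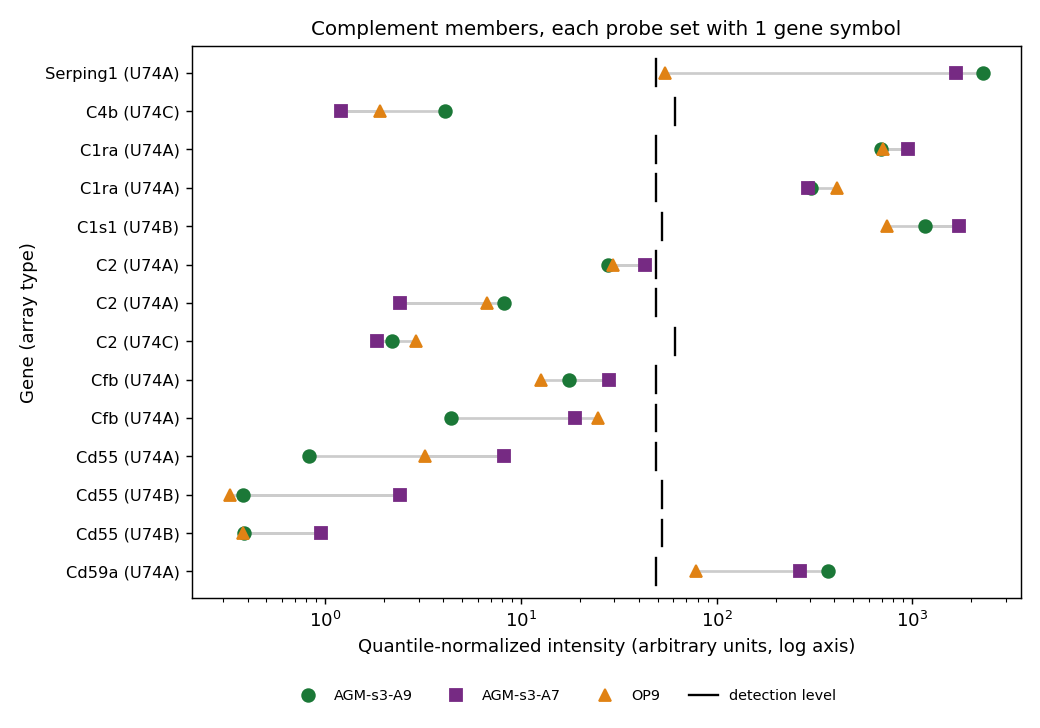
Quantile-normalized intensity (arbitrary units, log axis) of each probe set with exactly 1 member symbol, by gene and array type. Points are single arrays of the 3 lines, and the black bar is the detection level of the array type (49.0, 52.8 or 61.6). Serping1 in OP9 sits at 54.3 against 2296 and 1665 in the AGM lines, and all probe sets of C4b, C2, Cfb and Cd55 lie left of the bar.

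By gene, on the brightest probe set, 4 of 8 members were above the detection level in at least 1 line, against 56.4% of all genes. Between the AGM lines, 0 of the 4 differed by 2-fold in either direction, against 3.08% of 8590 genes higher in AGM-s3-A9 by that much and 2.28% lower. In OP9 against AGM-s3-A7, 3 of 4 were at least 2-fold lower (Serping1, Cd59a and C1s1) and 0 higher, against 5.98% lower and 5.14% higher among 8739 genes. In OP9 against AGM-s3-A9, 2 of 4 were lower (Serping1 and Cd59a) and 0 higher, against 6.58% and 5.06% among 8760 genes. The median log2 ratio of the 4 was 0.00 between the AGM lines, -1.50 in OP9 against AGM-s3-A7 and -1.45 in OP9 against AGM-s3-A9, beside 0.01, 0.04 and 0.02 over all genes. Serping1 was chosen for this difference, the 3 comparisons share arrays, and 4 genes are few, so nothing is read from these counts beyond the values of each gene.

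**Figure D2:**
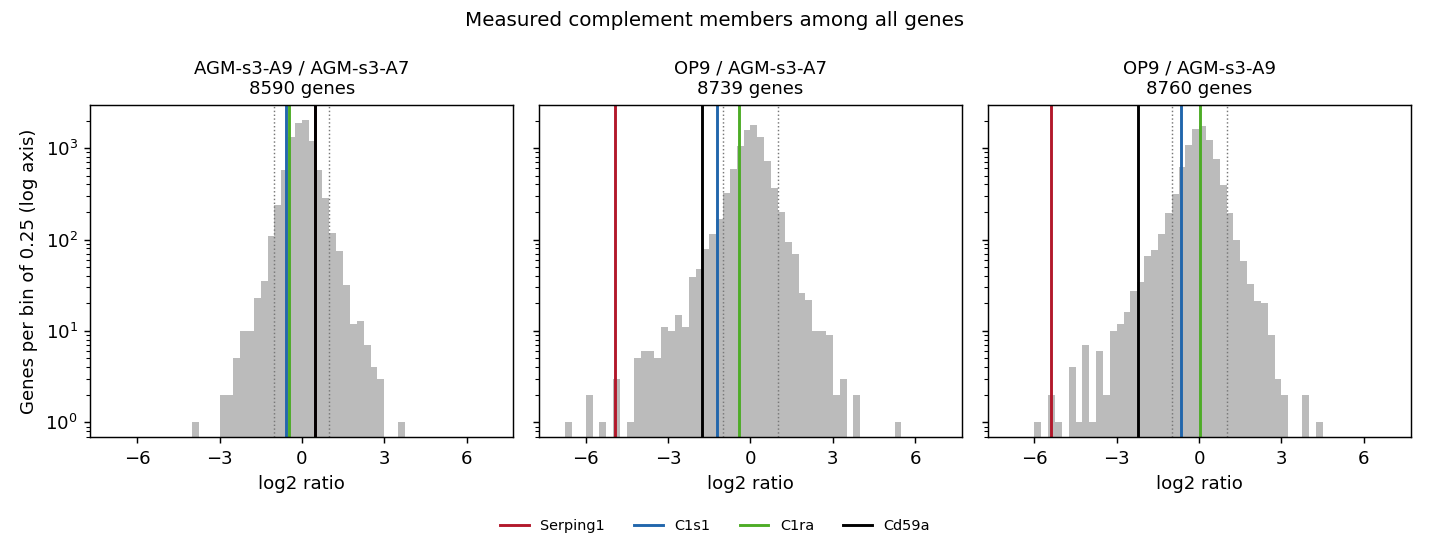
Distribution of log2 ratios over all genes above the detection level in at least 1 line of each pair (grey, log count axis), with the 4 measured members as coloured lines and 2-fold limits dotted. Ratios against a line below the detection level are bounds, and some of them lie further left than Serping1. The members lie inside the dotted lines between the AGM lines, and Serping1 lies at -4.94 and -5.40 in the comparisons of OP9.

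Of 47 other complement components, receptors and regulators listed, 36 had a probe set of their own and 9 were above the detection level in at least 1 line, or 25% against 56.4% of all genes. The remaining 27 were not, among them the C1q chains C1qa, C1qb and C1qc, the terminal component C9, properdin (Cfp) and factor I (Cfi). In AGM-s3-A9 against AGM-s3-A7, 1 of 9 was at least 2-fold higher and 0 lower, beside 3.08% and 2.28% of all genes. In OP9 against AGM-s3-A7, 1 of 8 was higher and 2 lower, beside 5.14% and 5.98%. In OP9 against AGM-s3-A9, 1 of 9 was higher and 2 lower, beside 5.06% and 6.58%. The genes behind these counts were Masp1, Colec12 and Thbd.

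Colec12 was lower in OP9 on both of its probe sets, and the direction of the lectin-route protease gene Masp1 depended on the probe set. Colec12, a membrane collectin that binds sugars on microbes, read 222 in OP9, 1537 in AGM-s3-A7 and 1084 in AGM-s3-A9 on MG-U74C. A second probe set, on MG-U74B and so on separate arrays, read 92.6, 751 and 568 in the same order. OP9 was the lowest on both, 6.91-fold and 8.11-fold below AGM-s3-A7. The MG-U74C probe set carries a suffix that marks possible cross-hybridisation. Masp1, a protease that partners the mannose-binding lectins, read 822 in OP9, 336 in AGM-s3-A7 and 286 in AGM-s3-A9 on MG-U74B, with OP9 2.44-fold above AGM-s3-A7. That direction is not settled, since another probe set, on MG-U74C, read 67.1, 109.8 and 29.3 in the same order. It carries the same suffix, and lay at 109% of the detection level in OP9 and below that level in AGM-s3-A9. The other 2 Masp1 probe sets were below the detection level throughout.

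Among the regulators, Thbd, encoding thrombomodulin, which restrains coagulation and complement at the cell surface, read 18.1 in OP9, 176 in AGM-s3-A7 and 793 in AGM-s3-A9 on its brighter probe set. AGM-s3-A9 was 4.51-fold higher than AGM-s3-A7, and OP9 at least 3.58-fold lower than AGM-s3-A7 and at least 16.2-fold lower than AGM-s3-A9. The dimmer probe set, on the same array type, read 47.8, 93.7 and 103 in the same order. It gave a ratio of 1.10 between the AGM lines, and carries a suffix that marks possible cross-hybridisation. Clu, encoding clusterin, a soluble inhibitor of the terminal pore, went the other way from Cd59a, at 545 in OP9, 279.7 in AGM-s3-A7 and 319 in AGM-s3-A9. OP9 was 1.95-fold above AGM-s3-A7 on that probe set and 1.59-fold on a dimmer one with the same suffix. Cr1l, the rodent membrane regulator also called Crry, was detected in every line and read 221 in OP9, 159 in AGM-s3-A7 and 145 in AGM-s3-A9 on the brighter of 2 probe sets, with no pair of lines 2-fold apart.

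Receptors and terminal components were at most weakly detected. C5ar1, the receptor for the C5a fragment, read 68.2 in OP9, 81.8 in AGM-s3-A7 and 50.1 in AGM-s3-A9. C6, a component of the terminal pore, read at least 84.3 in each line on 1 of 3 probe sets, the others being below the detection level. That probe set carries a suffix that marks possible cross-hybridisation. C8g reached it in AGM-s3-A9 alone, at 58.8. Susd4, a membrane protein with complement control repeats, read 32.3 in OP9, 56.2 in AGM-s3-A7 and 57.2 in AGM-s3-A9. For these 4 genes no fold or bound between lines reached 2-fold.

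**Figure D3:**
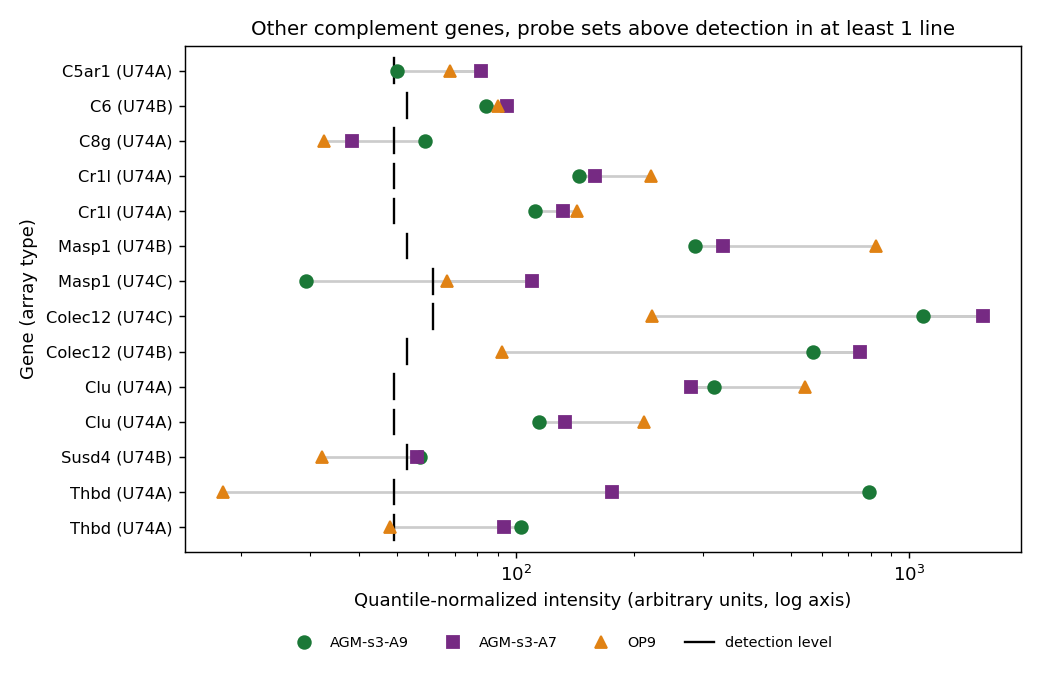
Quantile-normalized intensity (arbitrary units, log axis) of probe sets of other complement genes above the detection level (black bar) in at least 1 line. Points are single arrays of the 3 lines. Both Colec12 probe sets put OP9 lowest (222 and 92.6), both Clu probe sets put OP9 highest (545 and 212), and the Masp1 probe sets disagree.

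The genes with a pattern closest to Serping1 were sought on MG-U74A, by the distance between their pair of log2 ratios to AGM-s3-A7 and those of Serping1, among 4381 other genes above the detection level in all 3 lines. Where a gene had several such probe sets, the one nearest to Serping1 was used, and the others are not given. The nearest gene was Plat, at a distance of 1.58, with 61.6 in OP9, 639.8 in AGM-s3-A7 and 755 in AGM-s3-A9. Then came Ccl2, Fbln1, Dnm1 and Npr3, at distances of 1.91 to 2.11. In these 5, OP9 was 7.11-fold to 10.4-fold below AGM-s3-A7, less than for Serping1. A smaller difference follows largely from the choice of candidates. Genes below the detection level in OP9 were left out, and Serping1 already had the lowest ratio of the genes measured in both lines. The likeness rests on 3 arrays and describes them only.

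Interferons, interleukin-6 family cytokines, interleukin-1 and C/EBP factors are known to raise complement gene expression in many cells. A list of 23 genes held members of these pathways, the tumour necrosis factor receptor gene Tnfrsf1a, NF-kB subunits and the nuclear receptor genes Nr1h3 and Nr3c1. Of the 23, 21 had a probe set of their own. All 21 were above the detection level in at least 1 line, against 56.4% of all genes. In OP9 against AGM-s3-A7, 6 of 21 were at least 2-fold lower and 1 higher, beside 5.98% and 5.14% of all genes. Osmr, the oncostatin M receptor gene, read 397 in OP9, 1592 in AGM-s3-A7 and 1262 in AGM-s3-A9, with OP9 4.01-fold below AGM-s3-A7. Socs3, a feedback inhibitor induced by STAT3, read 73.2, 253 and 197 in the same order, 3.46-fold lower. A second probe set on MG-U74A read 102, 266 and 148, also with OP9 lowest but closer to AGM-s3-A9. Its suffix marks possible cross-hybridisation.

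The interferon-induced factor gene Irf1 read 159 in OP9, 415 in AGM-s3-A7 and 523 in AGM-s3-A9, so OP9 was 2.60-fold below AGM-s3-A7. Lifr, the leukemia inhibitory factor receptor gene, read 354 in OP9, 673 in AGM-s3-A7 and 1171 in AGM-s3-A9, 3.31-fold lower in OP9 than in AGM-s3-A9 and 1.90-fold lower than in AGM-s3-A7. Cebpd, a C/EBP factor of the acute phase, was highest in AGM-s3-A7, at 1067 against 421 in AGM-s3-A9 and 401 in OP9. Its log2 ratio between the AGM lines, -1.34, no longer reached 2-fold with the intensities as deposited (-0.68) or scaled to hybridization controls (-0.98). Ifnar2, an interferon receptor chain, was 2.80-fold higher in AGM-s3-A9, at 268 against 95.5 in AGM-s3-A7 on 1 probe set. Another, whose suffix marks possible cross-hybridisation, read 216 against 176. The remaining genes past 2-fold against AGM-s3-A7, named after their values were seen, were Il6st and Il1r1 (lower in OP9), Nr3c1 (lower in AGM-s3-A9 on its brightest probe set, while another put AGM-s3-A9 1.59-fold higher) and Nr1h3 (higher in OP9). Between the AGM lines 1 of 20 was higher and 2 lower, beside 3.08% and 2.28% of all genes. In OP9 against AGM-s3-A9 1 of 21 was higher and 6 lower, beside 5.06% and 6.58%. Whether any of these moves with Serping1 for a shared reason was not tested.

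**Figure D4:**
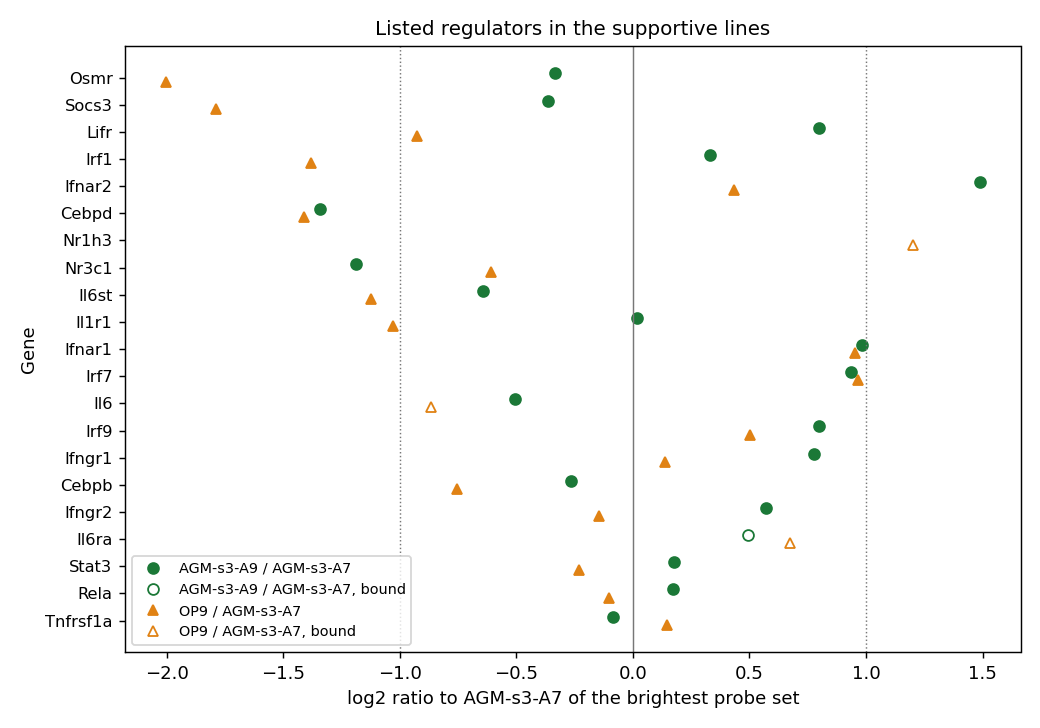
Log2 ratio to AGM-s3-A7 of the brightest probe set of 21 listed cytokine pathway, transcription factor and nuclear receptor genes, for AGM-s3-A9 (circles) and OP9 (triangles), with open symbols for bounds and dotted lines at 2-fold. Nr1h3 has no ratio between the AGM lines because both lay below the detection level. Osmr and Socs3 lie furthest left in OP9 (Socs3 at -1.79), and Cebpd lies left of -1 in both supportive lines at this scaling.

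The labelled cell type was checked against marker genes. Of 8 stromal markers, 7 were above the detection level in at least 1 line, against 56.4% of all genes. The exception was Vim, whose reading lay between 17.9 and 22.9. The summed intensity of the 8 was 9007 in OP9, 16334 in AGM-s3-A7 and 15692 in AGM-s3-A9. Most of each sum came from Col1a1 and Col1a2, so it says little of the rest. In OP9, Sparc and Thy1 lay at least 2-fold below AGM-s3-A7, as Serping1 and Cd59a were, while Fn1 was highest in OP9 at 748. The 7 had a median log2 ratio of -0.80 against AGM-s3-A7, and their part in the complement values was not tested. Macrophages and hepatocytes are other known sources of complement. Of 10 hematopoietic markers Cd14 passed the detection level in all lines and Laptm5 in the AGM lines only. Cd14 lay well above it, at 298 in OP9, 503 in AGM-s3-A7 and 495 in AGM-s3-A9. Laptm5 read 47.5, 72.8 and 49.6 in the same order. Ptprc, Csf1r and Adgre1 lay below it in all lines, and the summed intensity of the 10 was between 479 and 709, most of it from Cd14. The part of such cells in the complement values was not tested. Of 6 hepatocyte and 6 endothelial markers, 0 passed in any line.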

How the data were processed

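The authors deposited 1 table of linear probe set intensities per array type, with no scanner files used here. Per the labels' protocols, RNeasy columns gave the total RNA, of which 6 ug went into biotinylated cRNA. For background handling, probe summary and scaling the entry is: not given in the sources used here. Of 36899 probe sets, 198 were controls, 29131 had 1 gene symbol, 724 several and 6846 none, per the platform annotation. Deposited medians ran from 42.7 to 64.5 on MG-U74A, 21.6 to 32.6 on MG-U74B and 8.49 to 12.1 on MG-U74C, so the intensities were quantile-normalized on the log2 scale within each type (Python 3.11.15, numpy 2.4.6, pandas 2.3.3), and values below the detection level were raised to it before log2 ratios were formed. This step removes a general shift between lines. In data simulated with known folds it returned falls closely and understated rises when many bright probe sets rose together. The check first failed on MG-U74B for that reason. It passed after the altered probe sets were drawn from all expressed ones and the tolerance was widened. The brightest probe set over the 3 lines stands for a gene in counts.

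The text names all members, listed pathway genes above the detection level, up to 6 genes of the listed regulators with the largest range over the lines, and the 5 genes nearest to Serping1. Members and lists were chosen with earlier results of these data known. The number of arrays limits the precision. No test was possible with 1 array per line and type. Alternatives covered the scaling, the detection level, the choice of probe set, probe sets of possible cross-hybridisation and a 1.5-fold limit.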

Additional observations from a re-analysis of the deposited data

Results flagged for a closer look

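Thbd differed from AGM-s3-A7 in opposite directions in the supportive lines on its brighter probe set. The log2 ratio was 2.17 in AGM-s3-A9 and at most -1.84 in OP9, where the reading lay below the detection level. With the detection level at the 75th percentile the bound in OP9 was -0.04, which no longer reaches 2-fold, and with the median over both probe sets the ratio in AGM-s3-A9 was 1.16. Both values use the same AGM-s3-A7 array, the difference was not tested, and the dimmer probe set did not show the first value.

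A probe set on MG-U74A annotated to both C4a and C4b, and therefore outside the member rule, gave signal above the detection level of 49.0 in each line. It read 157 in OP9, 116 in AGM-s3-A7 and 325 in AGM-s3-A9, so AGM-s3-A9 was 2.79-fold above AGM-s3-A7 and OP9 was 2.06-fold below AGM-s3-A9. It cannot be assigned to either gene, and a second probe set with both symbols read at most 0.732.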

How the results depend on the processing

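The count of members at least 2-fold lower in OP9, against AGM-s3-A7, was 3 under 8 of 9 alternatives. Several of these could not change the count. With the detection level at the 75th percentile of all values the count was 2, and the bound for Cd59a was then a log2 ratio of -0.65. Between the AGM lines, 0 members were higher by 2-fold or more in AGM-s3-A9, which became 2 with the intensities as deposited (Serping1, and Cd59a at a log2 ratio of 1.20). Deposited intensities shift the median log2 ratio of all probe sets by between -0.50 and 0.58, depending on the pair and array type. Scaling to hybridization controls shifts it by between -0.32 and 0.52 and 75th percentile scaling by between -0.16 and 0.13.

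Of 93 alternative values for the 12 member ratios, 78 lay within 1 SD of the probe set disagreement, 15 moved further and 0 reversed a 2-fold difference. Many of the 78 repeat the main value, so their number does not measure robustness. Serping1, C1s1 and Cd59a have 1 probe set each, without a cross-hybridisation suffix, which several settings cannot change. With the intensities as deposited, each member ratio that involves AGM-s3-A9 moved by over 1 SD. For OP9 against AGM-s3-A7, Serping1 had measured log2 ratios of -5.05 to -4.81, and only a bound of -4.93 with the intensities as deposited and of -3.29 with the detection level at the 75th percentile. C1ra, which was never called, changed sign between the AGM lines, from -0.45 to 0.23 with deposited intensities. The log2 ratio of Masp1 in OP9 against AGM-s3-A7 fell from 1.29 to 0.29 with the median over its probe sets, and that of Ifnar2 between the AGM lines fell from 1.49 to 0.89. With the detection level at the 75th percentile only bounds were left for Socs3 in OP9 against AGM-s3-A7 (-0.57), Thbd in the same pair (-0.04) and Ifnar2 between the AGM lines (0.65), none of which reaches 2-fold. Cebpd between the AGM lines also lost its 2-fold difference, at -0.68 with deposited intensities and -0.98 with hybridization control scaling. The same scalings brought Lifr past 2-fold between the AGM lines, from 0.80 to 1.47 and 1.18. Irf1 passed it in that pair with deposited intensities alone, from 0.33 to 1.06. The detection level at the control percentile alone was an alternative chosen after the data were seen. No replicate could be left out, and no paired analysis was possible because each line has 1 array per type.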
